A study of Rattus norvegicus with 9 samples.

Results

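Transcript levels of 6 genes of iron uptake, storage, release and control were measured by RNA-seq in INS-1E cells, a rat insulinoma line that secretes insulin and serves as a model of the pancreatic beta cell. The 6 genes, Tfrc, Steap3, Fth1, Ncoa4, Slc40a1 and Ireb2, were chosen by gene name from the 20645 genes in the table, and each name matched 1 entry. Of the 6, 4 passed the filter of a mean of at least 1 FPKM (fragments scaled to transcript length and library size) over the 9 libraries and were tested, while Steap3 and Slc40a1 did not pass. Cells received fatty acid-free BSA, the carrier protein, in the BSA group, palmitic acid (PA), a saturated fatty acid, in the PA group, or palmitic acid together with cyanidin-3-O-glucoside (C3G), an anthocyanin pigment of plants, in the PA + C3G group. Every treatment lasted 24 h and each group held 3 libraries. The methods of the study give 0.5 mM PA and 50 µM C3G. The sample titles of the last group name cyanidin-3-O-glucoside only, and its treatment label names the mixture. Cells given C3G without PA were not analysed here, so that the comparisons asked what changed with PA, and what differed when C3G was added to PA. The methods of the study describe 3 replicate samples per group for RNA-seq and biological triplicates for its experiments in general, while the labels do not say whether the libraries of a group came from separate cultures, so that the p-values measure the spread between these libraries, which may be in part technical. In bulk RNA, fewer cells of a kind and less RNA per cell cannot be told apart.

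Iron bound to transferrin enters the cell with the transferrin receptor, which Tfrc encodes, and is reduced in the endosome by Steap3. Iron that is not used is stored in ferritin, a shell of heavy chains (Fth1) and light chains (Ftl1), and Ncoa4 carries ferritin to the lysosome when iron is needed. Slc40a1 encodes ferroportin, the exporter of iron. Ireb2 encodes iron regulatory protein 2, which at low iron binds stem-loops called iron-responsive elements. Binding at the end of the Tfrc mRNA protects it from decay, and binding at the start of the ferritin and ferroportin mRNAs blocks their translation, so that ferritin protein can change without its mRNA.

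The deposited counts summed to between 45559993 and 66730721 per library. The beta cell markers were present in every library, with all 9 listed genes at a mean of at least 1 FPKM and Ins1 the highest. Their summed FPKM lay between 49063 and 49775 in BSA, between 22226 and 22734 in PA and between 46637 and 52230 in PA + C3G. This sum was lower in PA than in both other groups, as Tfrc was, while in PA + C3G it overlapped BSA, where Tfrc did not. It was mostly Ins1, Ins2, Chga and Iapp, at means of 24132, 7552, 4374 and 3129 FPKM over the libraries. The other listed genes lay at 302 FPKM or less, so that the sum does not show how they moved. Gcg, the only alpha cell marker with an entry, was also lower in PA (1.35 to 6.02 FPKM) than in BSA (8.28 to 31.2), with PA + C3G at 4.17 to 22.5. Fibroblast markers summed to 2.08 to 2.64 FPKM in BSA, 3.08 to 3.53 in PA and 2.57 to 2.85 in PA + C3G. This sum was nearly all Pdgfra, at a mean of 2.77 FPKM over the libraries. The collagen genes Col1a1 and Col3a1 lay at 0.0246 and 0.0162, and Col1a2 and Dcn had no entry. Acinar and duct markers, with Krt7 the highest, summed to 81.3 to 119 FPKM in BSA, 86.5 to 124 in PA and 101 to 149 in PA + C3G, which overlapped. The part of these markers in the results below was not tested. Macrophage and leukocyte markers summed to at most 0.812 FPKM and erythroid markers, which matter for iron genes, to at most 0.105 FPKM in any library.

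Tfrc, Ncoa4 and Ireb2 were lower in cells given PA than in BSA, Tfrc was higher again when C3G was added to PA, and Fth1 passed the test in no comparison. Genes were called at an adjusted p under 0.05 in edgeR's quasi-likelihood test, adjusted by the Benjamini-Hochberg method over the 12958 genes tested. In PA versus BSA, 3 of the 4 tested iron genes were called, all lower, where 51.0% of all tested genes were called and 25.2% called lower (25.8% called higher). In PA + C3G versus PA, 1 of 4 was called, and it was higher, beside 21.2% called and 11.1% called higher (10.2% lower) over all genes. In PA + C3G versus BSA, 2 of 4 were called lower, beside 36.9% called and 17.9% called lower. Libraries that did not overlap in FPKM were found for Tfrc, Ireb2 and Ncoa4 against BSA in both treated groups, where 59.9% (PA) and 50.3% (PA + C3G) of tested genes did not overlap, and for Tfrc alone between PA + C3G and PA, where the share over all genes was 39.5%.

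The start regions of Tfrc, Ireb2 and Ncoa4, are shown because these 3 genes were all lower with PA, although Tfrc alone passed the test with C3G added. Each sequence holds the 250 bases before the RefSeq start of the gene in build GRCr8, read along the gene's strand, and lies at chr11:81690319-81690568 (minus strand) for Tfrc, chr8:64160838-64161087 (plus strand) for Ireb2 and chr16:7401541-7401790 (plus strand) for Ncoa4. Capitals mark matches, on either strand, to 6 motifs, namely the hypoxia response element core in its forms ACGTG and GCGTG, the antioxidant response element TGACNNNGC, the CRE core TGACGT, the GC box GGGCGG and the E-box CACGTG, whose letters contain those of ACGTG.
Tfrc: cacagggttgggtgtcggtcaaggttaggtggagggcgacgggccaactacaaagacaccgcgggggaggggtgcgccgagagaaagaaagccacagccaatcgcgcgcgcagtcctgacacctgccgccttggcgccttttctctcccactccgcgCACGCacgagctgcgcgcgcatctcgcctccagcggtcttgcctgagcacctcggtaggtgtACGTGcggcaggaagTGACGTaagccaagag
Ireb2: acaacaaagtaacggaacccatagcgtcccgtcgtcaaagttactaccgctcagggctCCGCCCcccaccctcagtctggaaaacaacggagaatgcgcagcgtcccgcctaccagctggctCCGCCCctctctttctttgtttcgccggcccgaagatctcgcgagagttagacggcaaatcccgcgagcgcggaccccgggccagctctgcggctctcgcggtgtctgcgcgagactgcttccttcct
Ncoa4: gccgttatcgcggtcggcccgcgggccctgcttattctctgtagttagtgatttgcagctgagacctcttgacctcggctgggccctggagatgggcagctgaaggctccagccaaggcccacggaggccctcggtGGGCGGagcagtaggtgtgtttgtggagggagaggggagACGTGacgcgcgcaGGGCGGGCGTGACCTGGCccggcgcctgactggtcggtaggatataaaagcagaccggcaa
The Tfrc sequence held both forms of the hypoxia core and the CRE core once each, with the A form starting 31 bases and the CRE core 16 bases before the gene's start. The Ncoa4 sequence held both forms of the hypoxia core once each, the antioxidant element once, overlapping the G form, and the GC box at 2 places. The Ireb2 sequence held the GC box at 2 places on the opposite strand and none of the other motifs. Among 33469 promoters of the same length, 16.6% held the A form of the hypoxia core, 25.9% its G form, 10.1% the antioxidant element, 6.95% the CRE core, 30.5% the GC box and 5.59% the E-box. No motif was shared by all 3 genes. These matches describe letters and are not evidence of binding. The promoter of Fth1 is not shown.

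Tfrc had the largest change of the 4 tested genes in both comparisons with the PA group, lower with PA and higher when C3G was added. The gene (ENSRNOG00000001766, chromosome 11, 71397383 to 71419223, minus strand, coordinates as in the deposited table, whose build is not given in the sources used here) was measured at 100.3, 76.7 and 97.6 FPKM in the BSA libraries, at 37.1, 33.6 and 35.8 in the PA libraries and at 66.8, 65.3 and 68.0 in the PA + C3G libraries. The 3 groups did not overlap, with PA lowest, PA + C3G between and BSA highest. The means were 91.5 ± 12.9 (SD, n = 3), 35.5 ± 1.76 and 66.7 ± 1.39 FPKM, so that relative to the BSA mean Tfrc stood at 0.388 ± 0.0192 in PA and 0.729 ± 0.0152 in PA + C3G.

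In edgeR's quasi-likelihood test across all tested genes with Benjamini-Hochberg adjustment, Tfrc was 2.54-fold lower in PA than in BSA (log2 fold change −1.34, SE 0.09, 95% interval −1.54 to −1.14, adjusted p = 1.57e-06). By p-value it was number 231 of the genes lower in PA. With C3G added to PA it was 1.93-fold higher than with PA alone (log2 fold change 0.95, SE 0.09, interval 0.75 to 1.14, adjusted p = 0.00021) and was number 41 by p-value of the genes higher in PA + C3G. Relative to BSA, Tfrc in PA + C3G was still 1.32-fold lower (log2 fold change −0.40, SE 0.09, interval −0.59 to −0.20, adjusted p = 0.00595). A fold change above 2 with an unadjusted p under 0.05, the criterion of the study, was met by Tfrc in PA versus BSA only, where 7.56% of tested genes met it, against 1.13% in PA + C3G versus PA and 4.63% in PA + C3G versus BSA. The 2 comparisons with PA share the same PA libraries, so that their opposite directions are not independent.

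**Figure D1:**
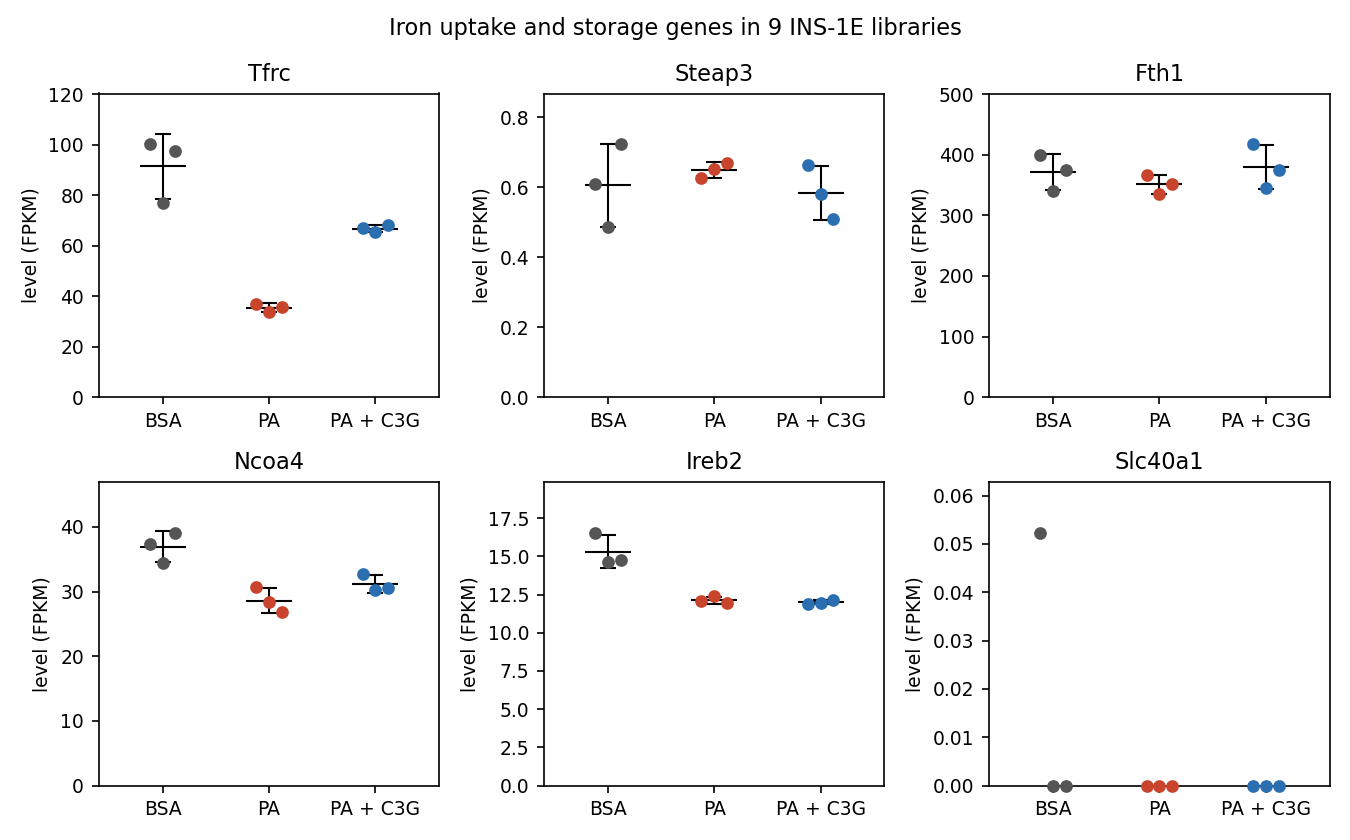
FPKM of each of the 6 genes in every library, on linear axes from 0, by group (BSA, PA, PA + C3G), where each point is 1 library, the horizontal bar the mean and the whiskers the SD (n = 3), both left out for Slc40a1. Tfrc separated into 3 levels, Ireb2 and Ncoa4 lay highest in BSA, Fth1 overlapped between all groups, and Slc40a1 was above 0 in 1 library.

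Steap3, the ferrireductase of the transferrin cycle, was low, and its groups overlapped. The gene (ENSRNOG00000049471, chromosome 13, 36257112 to 36290531, minus strand) was measured at 0.61, 0.49 and 0.72 FPKM in BSA, 0.63, 0.65 and 0.67 in PA, and 0.66, 0.58 and 0.51 in PA + C3G, from 73 to 142 deposited counts per library. When the filter was lifted, edgeR gave it a log2 fold change of 0.13 with PA (adjusted p = 0.738) and of −0.12 with C3G added to PA (adjusted p = 0.831). No difference was detected for Steap3.

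Of 7 other genes of iron uptake tested, 2 rose and 2 fell with PA, or 57.1% called beside 51.0% of all tested genes. With C3G added to PA 2 fell, or 28.6% beside 21.2%, and the median log2 fold change of the list with PA was 0.05, against 0.00296 over all tested genes. Tf, which encodes transferrin itself, the ligand of the receptor, rose from 9.96 ± 0.765 to 17.5 ± 1.16 FPKM with PA (n = 3 each, log2 fold change 0.83, SE 0.06, adjusted p = 4.3e-06), opposite to Tfrc. In PA + C3G it was 14.7 ± 0.219 FPKM, lower than in PA by an adjusted p of 0.0437 (log2 fold change −0.21, SE 0.06), a call that was lost in 8 of 19 other settings. Slc39a14, a zinc transporter that also imports iron not bound to transferrin, fell with PA from 8.34 ± 0.816 to 5.61 ± 0.0569 FPKM (log2 fold change −0.55, SE 0.07, adjusted p = 0.000208). Its log2 fold change with C3G added was 0.04 (adjusted p = 0.785). Dnm2, which encodes a dynamin that pinches off endocytic vesicles, rose with PA (log2 fold change 0.40, adjusted p = 5.87e-05) and fell with C3G added (log2 fold change −0.21, adjusted p = 0.0107). Slc11a2, the transporter that moves iron out of the endosome, stood at 16.2, 16.5 and 17.3 FPKM on average in BSA, PA and PA + C3G, and passed the test only for PA + C3G versus BSA (log2 fold change 0.15, adjusted p = 0.0144). Tfr2, the second transferrin receptor, had a mean of 0.415 FPKM over the libraries and was not tested.

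**Figure D2:**
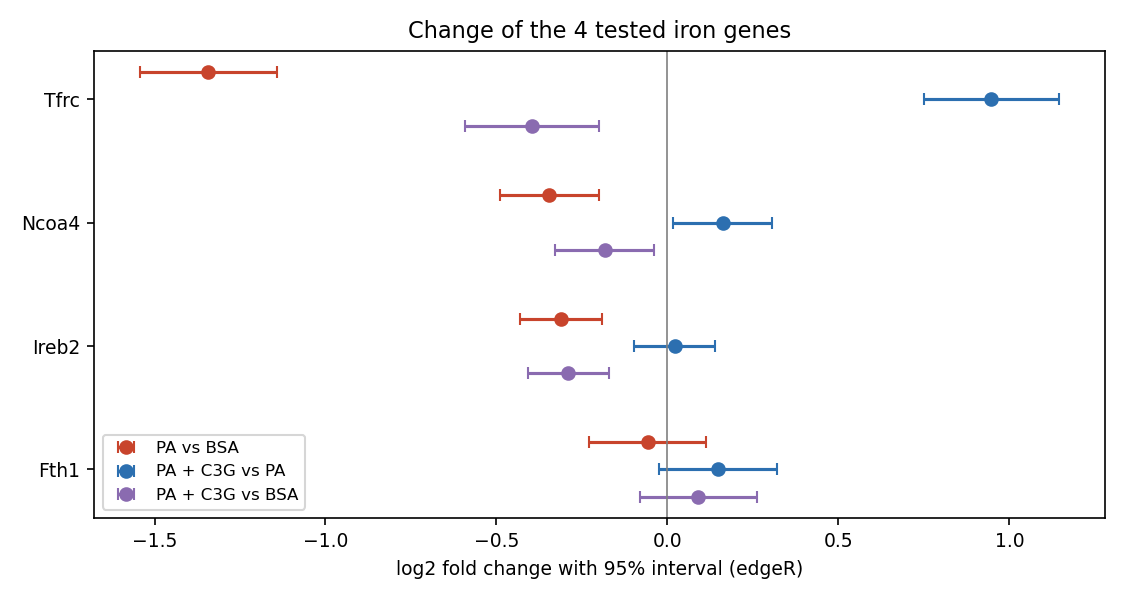
Log2 fold change (edgeR) of the 4 tested iron genes in PA versus BSA, PA + C3G versus PA and PA + C3G versus BSA, where each point is the estimate and each bar its 95% interval. Tfrc lay at −1.34, 0.95 and −0.40, and the intervals of Fth1 included 0 in all 3 comparisons.

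Fth1, the heavy chain of ferritin, was the most abundant of the 6 genes and passed the test in no comparison. The gene (ENSRNOG00000022619, chromosome 1, 226030938 to 226033228, plus strand) was measured at 399, 340.4 and 375 FPKM in BSA, 366, 335 and 351 in PA, and 417, 345 and 374.5 in PA + C3G. The libraries of the 3 groups overlapped, and in each group replicate 1 was highest and replicate 2 lowest. Between PA and BSA the log2 fold change was −0.06 (interval −0.23 to 0.11, adjusted p = 0.561 by edgeR). It was 0.15 in PA + C3G versus PA (interval −0.02 to 0.32, adjusted p = 0.206) and 0.09 in PA + C3G versus BSA (interval −0.08 to 0.26, adjusted p = 0.395). With the replicate number as a block, it was 0.14 in PA + C3G versus PA and passed (adjusted p = 0.026 by edgeR).

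The light chain of ferritin moved with PA while Fth1 did not pass the test. The table holds 4 entries described as ferritin light chain, whose sequences were not compared here. Ferritin genes have many near-identical copies in mammals, so that the division of fragments between these entries is uncertain. The highest, LOC100360087 (chromosome 1, 101448346 to 101449829), was measured at 517, 521 and 529 FPKM in BSA, 1412, 1290 and 1428 in PA, and 861, 783 and 845 in PA + C3G. Its 3 groups did not overlap, with PA highest and BSA lowest, the reverse order of Tfrc. It rose 2.68-fold with PA (log2 fold change 1.42, SE 0.05, adjusted p = 3.78e-08 by edgeR) and was 1.62-fold lower with C3G added to PA (log2 fold change −0.69, SE 0.05, adjusted p = 4.8e-05). The entry named Ftl1, which the table places on chromosome 5 (152325871 to 152326778), stood at 29.9 ± 5.12, 58.8 ± 14.4 and 44.1 ± 2.84 FPKM (n = 3). It rose with PA (log2 fold change 0.999, SE 0.17, adjusted p = 0.00073), and its difference between PA + C3G and PA did not pass (log2 fold change −0.37, adjusted p = 0.141). LOC100362384 moved as LOC100360087 did (log2 fold change 1.48 and −0.64, adjusted p = 2.14e-05 and 0.0122), and the adjusted p of LOC100359668 lay between 0.116 and 0.488.

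The ratios of Fth1 to Tfrc and to the light chain differed between the groups. Fth1 itself passed the test in no comparison, so that these ratios largely restate the changes of Tfrc and the light chain given above. The ratio of Fth1 to Tfrc FPKM was 3.98, 4.44 and 3.84 in BSA, 9.87, 9.98 and 9.80 in PA, and 6.24, 5.29 and 5.51 in PA + C3G. No groups overlapped, with PA highest in every library. The ratio of Fth1 to the entry named Ftl1, which had been planned, was 12.8 ± 2.94 in BSA, 6.20 ± 1.45 in PA and 8.58 ± 0.517 in PA + C3G (n = 3). The ratio of Fth1 to the summed light chain entries, added after the data were seen, was 0.660 ± 0.0586, 0.239 ± 0.0110 and 0.424 ± 0.0227. The groups of these 2 ratios did not overlap either. For each of these differences the exact two-sided permutation test gave p = 0.1, the smallest that 3 against 3 libraries allow. FPKM is per length, so that these are ratios of transcripts and not of proteins.

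**Figure D3:**
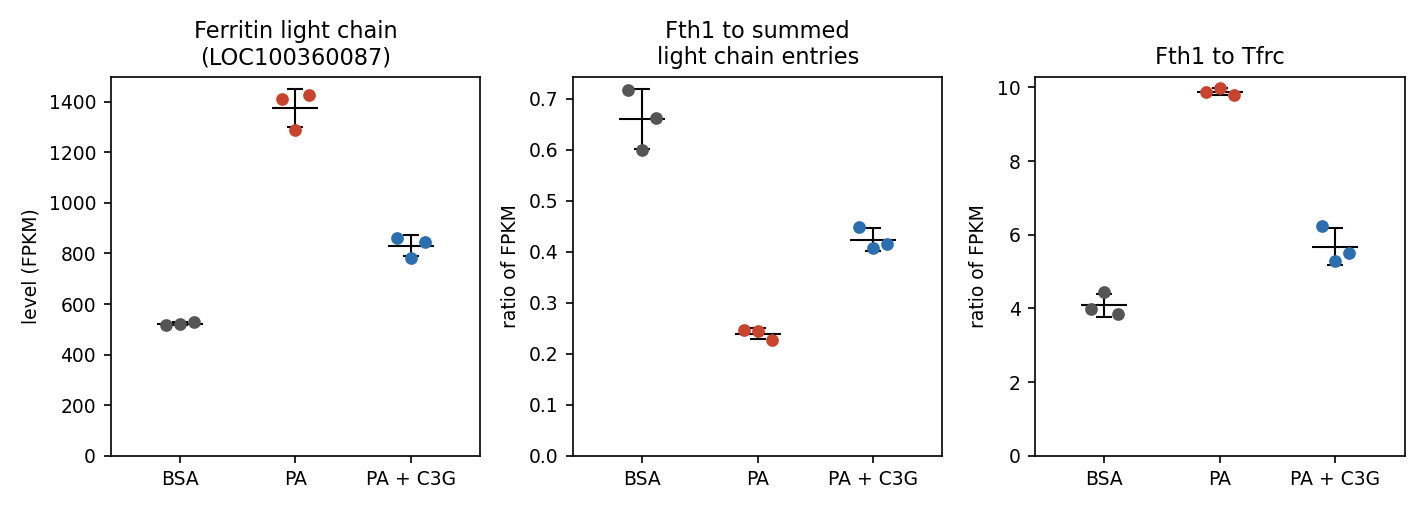
FPKM of the light chain entry LOC100360087, the ratio of Fth1 to the summed light chain FPKM, and the ratio of Fth1 to Tfrc FPKM, by library in each group, on linear axes from 0, with the mean and SD (n = 3). The light chain entry and the ratio of Fth1 to Tfrc were highest in PA, and the ratio of Fth1 to light chain lowest.

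Ncoa4, the receptor that delivers ferritin to lysosomes, was lower with PA. The gene (ENSRNOG00000019768, chromosome 16, 8302950 to 8323293, plus strand) was measured at 37.4, 34.4 and 39.1 FPKM in BSA, 30.7, 28.3 and 26.8 in PA, and 32.8, 30.3 and 30.5 in PA + C3G. All PA and PA + C3G libraries lay below all BSA libraries, and the PA and PA + C3G libraries overlapped. The log2 fold change with PA was −0.34 (SE 0.06, interval −0.49 to −0.20, adjusted p = 0.00154 by edgeR), a 1.27-fold lower level. With C3G added to PA it was 0.16 (interval 0.02 to 0.31), which did not pass (adjusted p = 0.111 by edgeR). Relative to BSA the log2 fold change in PA + C3G was −0.18 with an adjusted p of 0.0502, on the edge of the threshold, and the gene passed in 12 of 19 other settings with adjusted p between 0.014 and 0.146. Of the other storage genes, 4 were tested, and 3 rose with PA (beside 25.8% of all tested genes called higher), namely Ftl1, Pcbp2, an RNA-binding protein that also acts as an iron chaperone (log2 fold change 0.13), and Tax1bp1, an adaptor of autophagy (log2 fold change 0.11, a call lost in 13 of 19 other settings).

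Slc40a1, the exporter ferroportin, was not detected in 8 of 9 libraries. The gene (ENSRNOG00000049995, chromosome 9, 52820683 to 52830457, minus strand) had 6 deposited counts in BSA replicate 1 and 0 in the others. A count of 0 allows up to 3 fragments, taken here as 12 deposited counts. This is between 0.180 and 0.263 CPM (counts scaled to the library total) per library and covers counting error only. It assumes that 1 fragment gave 4 counts, since low counts piled up at 4, and the limit depends on this. Counts of 3 and 5 also occurred, and the 6 counts above are no multiple of 4. No fold change is given, since both sides lay at or under this limit, and a change in ferroportin mRNA could not be measured in these cells. Of the other genes of iron export, 3 of 9 were tested. Among these Nedd4l alone, a ubiquitin ligase, rose with PA (log2 fold change 0.21, a call lost in 10 of 19 other settings), or 33.3% called beside 51.0% of all tested genes. In PA + C3G versus PA the adjusted p of the 3 genes was 0.065 or more (Nedd4l, log2 fold change −0.22), and in PA + C3G versus BSA 0.749 or more. None was called there, beside 21.2% and 36.9% of all tested genes.

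Ireb2 was lower in both groups that received PA. The gene (ENSRNOG00000013271, chromosome 8, 59420123 to 59501118, plus strand) was measured at 16.6, 14.6 and 14.7 FPKM in BSA, 12.1, 12.4 and 11.9 in PA, and 11.90, 11.97 and 12.14 in PA + C3G. All PA and PA + C3G libraries lay below all BSA libraries and overlapped each other. Between PA and BSA the log2 fold change was −0.31 (SE 0.05, interval −0.43 to −0.19, adjusted p = 0.000847 by edgeR) and −0.29 in PA + C3G versus BSA (SE 0.05, interval −0.41 to −0.17, adjusted p = 0.0021), or 1.24-fold and 1.22-fold lower. Between PA + C3G and PA it was 0.02 (interval −0.10 to 0.14, adjusted p = 0.821), so that a difference beyond 0.14 on the log2 scale lay outside the interval.

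Aco1, which encodes iron regulatory protein 1, stood at 26.7 ± 0.931, 28.3 ± 1.87 and 27.5 ± 1.34 FPKM in BSA, PA and PA + C3G (n = 3) and passed in no comparison (log2 fold change with PA 0.11, adjusted p = 0.123 by edgeR). Fbxl5, the iron-sensing subunit of the ubiquitin ligase that degrades iron regulatory proteins, rose with PA from 23.6 ± 1.24 to 28.3 ± 1.10 FPKM (n = 3, log2 fold change 0.29, SE 0.05, adjusted p = 0.00137). With C3G added it was 22.8 ± 0.866 FPKM (log2 fold change −0.27, SE 0.05, adjusted p = 0.00654), and against BSA the log2 fold change was 0.01 (adjusted p = 0.871). Skp1 and Rbx1, shared subunits of that ligase class, fell with PA (log2 fold change −0.37 and −0.33, adjusted p = 1.64e-05 and 0.00118). Of 6 tested genes of this control, 2 rose and 2 fell with PA (66.7% called, beside 51.0% of all tested genes). Fbxl5 alone passed with C3G added to PA, or 16.7% called beside 21.2% of all tested genes.

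Of other mRNAs listed as carrying an iron-responsive element, 5 were tested, and the element itself was not examined in these rat mRNAs. With PA 1 of them rose, Sdhb (log2 fold change 0.20, adjusted p = 0.015 by edgeR), where 51.0% of all tested genes were called. With C3G added to PA 2 rose and 1 fell, where 21.2% were called. The gene that fell was Sdhb (log2 fold change −0.18, adjusted p = 0.0465). These counts rest on few genes and were not tested against all genes. Epas1, which encodes HIF-2α, stood at 7.34 ± 0.610, 7.92 ± 0.196 and 10.4 ± 0.187 FPKM in BSA, PA and PA + C3G (n = 3), and rose with C3G added to PA (log2 fold change 0.42, SE 0.06, adjusted p = 0.00174 by edgeR). Cdc14a, which encodes a phosphatase of the cell cycle and carries its element at the end of the mRNA as Tfrc does, was higher with C3G added to PA (log2 fold change 0.37, adjusted p = 0.0275), a call lost in 7 of 19 other settings, and its log2 fold change with PA was 0.13 (adjusted p = 0.291).

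The mitochondrial iron carriers Slc25a37 and Slc25a28 rose with PA and fell with C3G added, the reverse of Tfrc. Of 19 tested genes of mitochondrial iron and iron-sulfur cluster assembly, 8 rose and 1 fell with PA (47.4% called, beside 51.0% of all tested genes, median log2 fold change 0.15), and 4 fell with C3G added to PA (21.1% called, beside 21.2%, median −0.01). The shares called were thus near those of all genes. Slc25a37, mitoferrin 1, stood at 2.18 ± 0.167 FPKM in BSA, 4.51 ± 0.237 in PA and 2.71 ± 0.242 in PA + C3G (n = 3, log2 fold change 1.07 with PA and −0.70 with C3G added, adjusted p = 0.000103 and 0.00583 by edgeR). Slc25a28, mitoferrin 2, was the more abundant, at 44.3 ± 2.86, 72.5 ± 4.94 and 48.3 ± 0.517 FPKM (log2 fold change 0.74 and −0.55, adjusted p = 5.5e-06 and 0.000389). Nfu1, an iron-sulfur cluster scaffold, rose with PA (log2 fold change 0.57, adjusted p = 8e-05), and its difference with C3G added did not pass (log2 fold change −0.16, adjusted p = 0.133).

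Over the 9 lists of iron-related genes, without the 6 genes, 82 of 99 genes with an entry were tested. With PA, 29 rose and 13 fell, so that 51.2% were called, close to the 51.0% of all tested genes (3345 higher and 3269 lower). With C3G added to PA, 8 rose and 15 fell, or 28.0% beside 21.2% of all tested genes (1436 higher and 1316 lower). When each library was rescaled to the same FPKM sum, the list split was 4 higher and 24 lower. All tested genes then split into 775 higher and 2548 lower. Without PA replicate 3 the count of 23 fell to 12, and without PA + C3G replicate 2 or 3 to 14. Over all tested genes the count of 2752 fell to 1718, 2336 and 1957 in these settings. In PA + C3G versus BSA, 23 were higher and 6 lower, or 35.4% beside 36.9% of all tested genes (2462 higher and 2321 lower). The list split became 15 and 12 under that rescaling (1876 and 3066 over all tested genes). With limma on log2(FPKM + 1) it was 16 and 13 (1850 and 3091 over all tested genes).

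**Figure D4:**
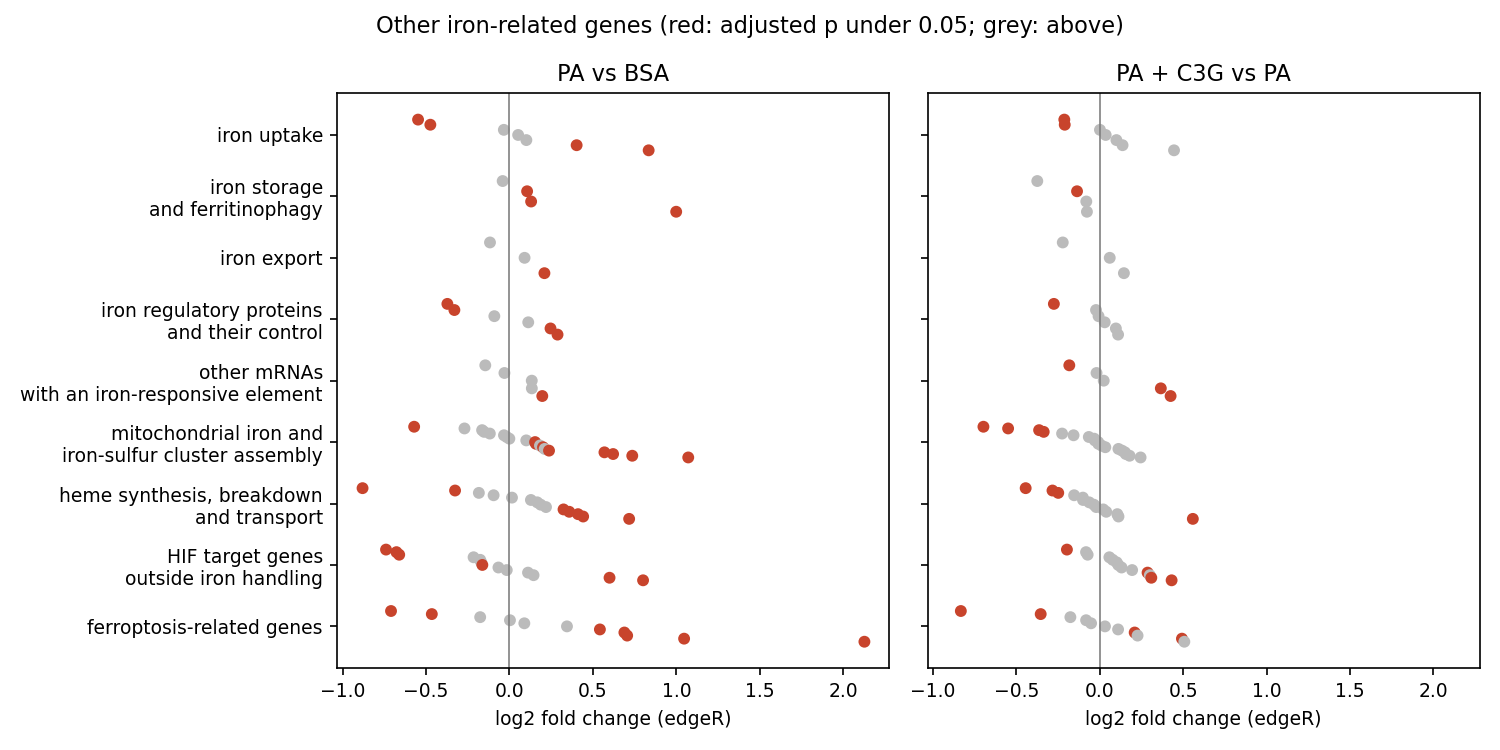
Log2 fold change (edgeR) of the tested genes of each iron list in PA versus BSA and in PA + C3G versus PA, where each point is 1 gene and red marks an adjusted p under 0.05. Over all 9 lists, 51.2% of the tested genes were called with PA and 28.0% with C3G added, beside 51.0% and 21.2% of all tested genes.

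Across the 6 genes, levels differed widely. By mean FPKM over the 9 libraries, Fth1 lay above 99.3% of the genes in the table, Tfrc above 93.9%, Ncoa4 above 86.2%, Ireb2 above 69.1%, Steap3 above 33.8% and Slc40a1 above 4.30%. The order Fth1, Tfrc, Ncoa4, Ireb2, Steap3, Slc40a1 held in each of the 9 libraries. Tfrc and Ncoa4 lay closest in PA, at 35.5 and 28.6 FPKM on average, against 91.5 and 37.0 FPKM in BSA.

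The genes whose levels ran most closely with each of the tested iron genes were found by Pearson correlation of log2(FPKM + 1) over the 9 libraries, as a description, since the libraries fall into 3 groups and all genes of a library share its depth. For Tfrc these were Prnp (0.986), Trpm5 (0.986) and Tmx4 (0.984). Trpm5, a cation channel, stood at 3.77 ± 1.17, 0.415 ± 0.0832 and 1.74 ± 0.260 FPKM in BSA, PA and PA + C3G (n = 3), a wider relative range than that of Tfrc. Prnp, the prion protein, stood at 239 ± 10.9, 182 ± 2.51 and 223 ± 7.24 FPKM, a narrower relative range. For Ireb2 such genes were Pign (0.987) and Ddx52 (0.986), for Ncoa4 Senp2 (0.981), Lasp1 (0.977) and Rptor (0.976), and for Fth1 Pcdhb3 (0.980), Ttc13 (0.961) and Syt5 (0.959). Among the iron genes themselves the coefficient was 0.880 for Tfrc with Ncoa4, 0.712 for Tfrc with Ireb2, 0.823 for Ireb2 with Ncoa4 and 0.490 for Tfrc with Fth1.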

How the data were processed

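RNA-seq of INS-1E cells was analysed for 9 libraries in 3 groups of 3 (BSA, PA, PA + C3G; 24 h), grouped by the sample titles. Doses were taken from the methods of the study. Per the labels, oligo(dT)-selected RNA was made into strand-specific libraries and sequenced in paired-end mode. The submitters' processing notes name cutadapt 1.9, HISAT2 2.0.4, StringTie 1.3.4d, DESeq2 and edgeR, without roles. The genome build is not given in the sources used here. The authors deposited estimated counts per gene, without normalization, and FPKM, the same quantification scaled to transcript length and library size. The table holds no columns of fold changes or p-values. Low counts piled up at 4 (4044 entries of 4 against 2040 of 3 and 1276 of 5), for a reason the sources do not state. The number of independent fragments may thus be lower than the counts.

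The counts were used as deposited in R 4.3.3 with the quasi-likelihood F test of edgeR 4.0.16 (TMM scaling, all 9 libraries in 1 fit). The 12958 genes whose FPKM averaged 1 or more over the libraries were tested, with Benjamini-Hochberg adjustment. Tests for counts had been planned, and estimated counts that are whole numbers were treated as such. Standard errors and 95% intervals were derived from the F statistic. Ratios and single values were compared by exact two-sided permutation tests. The fits were tested on simulated data. Library pairs correlated at 0.981 to 0.985 within groups and 0.943 to 0.977 across groups (Pearson, log2(FPKM + 1)). Over all tested genes, same-numbered libraries of different groups hardly deviated together (r −0.05 to 0.10 in 9 pairs, 1 of them over 0.1). The r of other pairs was −0.14 to 0.11, so that libraries were not paired. This does not speak to single genes, and Fth1 had the same order of replicates in every group.

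The 6 genes and the 9 lists were chosen with earlier results of these data known, so that no list is independent support. Beside the 6 genes, the text names up to 3 list genes per list and comparison with the largest called change, together with Tfr2, Ftl1, Aco1, Fbxl5, Slc11a2 and Slc25a37 and the 3 genes most like each tested gene, of which 1 is not reported here. The other light chain entries, Gpx4, Acsl4 with PA, Hmox1 and Nfu1 with PA were added after their values were seen. Of 102 list genes 99 had an entry, 1 of them through a RefSeq synonym; Steap4, Ftmt and Pcbp1 were not analysed here. Promoters were RefSeq entries of GRCr8, which matched 5 of the 6 genes. Other settings were DESeq2 1.42.0, size factors by median ratio, libraries scaled to equal FPKM sums, no filter or one at a mean of 5 FPKM, a fit of the compared groups alone, the replicate number as a block, counts divided by 4, limma 3.58.1 on log2(FPKM + 1) and log2(FPKM + 0.1), and each library left out in turn. The summed light chain entries were added after the data were seen.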

Additional observations from a re-analysis of the deposited data

How the results depend on the processing

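The direction and call of Tfrc held in all 19 alternatives in each comparison, with log2 fold changes of −1.46 to −1.28 in PA versus BSA, 0.86 to 0.98 in PA + C3G versus PA and −0.52 to −0.34 in PA + C3G versus BSA. In PA versus BSA 3 of the iron genes were called in every alternative. In PA + C3G versus PA the number called was 1, and 2 with the replicate number as a block. There Fth1 reached an adjusted p of 0.026 (log2 fold change 0.14), although over all tested genes the numbers hardly paired the libraries. With this block 43, 23 and 31 list genes were called in PA versus BSA, PA + C3G versus PA and PA + C3G versus BSA, against 42, 23 and 29. Over all tested genes 6843, 3118 and 5058 were called, against 6614, 2752 and 4783. Ireb2 in PA + C3G versus PA turned from 0.021 to −0.069 with libraries rescaled to equal FPKM sums and to −0.014 and −0.015 with limma at pseudocounts of 1 and 0.1, and passed the test in none of these. Rescaling moved the median of all genes in PA + C3G versus PA to −0.09. The iron list genes called in PA + C3G versus PA numbered 12 to 22 when 1 library was left out, against 23 with all libraries. Over all tested genes these calls numbered 1718 to 2838, against 2752. Depth limits what can be said of Slc40a1 and Steap3, and no alternative was run for a ratio of Slc40a1 to Tfrc, since most of its values are 0.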

Other observations

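Of 14 tested genes of heme synthesis, breakdown and transport, 5 rose and 2 fell with PA (50.0% called, beside 51.0% of all tested genes), and 1 rose and 3 fell with C3G added to PA (28.6%, beside 21.2%; edgeR, Benjamini-Hochberg adjustment). With PA the share was thus near that of all genes. Blvra, biliverdin reductase, fell with PA (log2 fold change −0.88, SE 0.16, adjusted p = 0.00124), and Ppox and Urod, enzymes of heme synthesis, rose (log2 fold change 0.72 and 0.44, adjusted p = 0.000603 and 0.000903). With C3G added, Blvra was higher and Ppox lower (log2 fold change 0.56 and −0.44, adjusted p = 0.0337 and 0.0235), calls lost in 9 and 4 of 19 alternatives. Hmox1, heme oxygenase 1, which releases iron from heme, had a log2 fold change of 0.22 with PA (adjusted p = 0.416).

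Tfrc is a known target of hypoxia-inducible factors, and other HIF targets are given for comparison. Of 13 tested, 2 rose and 4 fell with PA (46.2% called, beside 51.0%), and 3 rose and 1 fell with C3G added to PA (30.8%, beside 21.2%). Ndrg1, a stress-responsive gene, stood at 201 ± 5.34, 118 ± 6.23 and 143 ± 6.87 FPKM in BSA, PA and PA + C3G (n = 3). Its log2 fold change was −0.74 with PA and 0.31 with C3G added (adjusted p = 2.02e-06 and 0.00303 by edgeR). P4ha1 stood at 34.6 ± 4.41, 21.5 ± 1.28 and 28.3 ± 3.10 FPKM, and was higher with C3G added (log2 fold change 0.43, adjusted p = 0.0171). Ankrd37 was higher with C3G added too (log2 fold change 0.29, adjusted p = 0.0209), and Egln3 was lower with PA (log2 fold change −0.68, adjusted p = 0.03). Adm, adrenomedullin, and Ddit4, an inhibitor of mTORC1, were higher than in BSA both in PA (log2 fold change 0.80 and 0.60, adjusted p = 0.0156 and 2.72e-05) and in PA + C3G (0.86 and 0.68, adjusted p = 0.0161 and 2.25e-05), and their differences between PA + C3G and PA did not pass (0.06 and 0.08, adjusted p = 0.888 and 0.404).

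Ferroptosis, cell death by iron-dependent lipid peroxidation, has its own gene list. Of 11 tested genes, 5 rose and 2 fell with PA (63.6% called, beside 51.0% of all tested genes), with log2 fold changes from −0.71 to 2.13 and a list median of 0.34, beside 0.00296 over all genes. With C3G added to PA 2 rose and 2 fell (36.4%, beside 21.2%). Neither share nor median was tested against other genes. Sat1, an enzyme of polyamine breakdown, rose from 8.12 ± 0.948 to 34.9 ± 2.76 FPKM with PA and was 19.1 ± 0.725 FPKM in PA + C3G (n = 3, log2 fold change 2.13 and −0.83, adjusted p = 1.54e-07 and 0.000454 by edgeR). Dhodh, at a mean of 1.06 FPKM over the libraries, fell with PA (log2 fold change −0.71, adjusted p = 0.0233). Chac1 was higher with C3G added to PA (log2 fold change 0.49, adjusted p = 0.00918), and Gch1 higher in PA + C3G than in BSA (log2 fold change 0.75, adjusted p = 3.09e-06). Acsl4, which activates polyunsaturated fatty acids, rose with PA (log2 fold change 0.71, adjusted p = 3.98e-06) and fell with C3G added (log2 fold change −0.35, adjusted p = 0.00204). Gpx4, the peroxidase that limits lipid peroxides, rose with PA too (log2 fold change 0.69, adjusted p = 6.15e-06), and Lpcat3, a phospholipid acyltransferase, rose with PA (log2 fold change 1.05, adjusted p = 4.41e-08) while its difference with C3G added did not pass (log2 fold change −0.08, adjusted p = 0.145).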
